A study of Mus musculus with 4 samples.

Results

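The genes of fatty acid synthesis and desaturation were examined in RNA sequencing libraries of mouse CD4+ T cells. The 10 genes, chosen by name, are Acly, Acaca, Acacb, Fasn, Elovl6, Scd1, Scd2, Fads1, Fads2 and the regulator Srebf1, and each name stood on 1 of the 34745 rows of the table. There were 4 libraries, 1 per group, all of CD4+ T cells from the spleen, and the mice were wild type C57BL/6. The Th17 and Treg libraries came from cells kept for 3 days under Th17 or Treg differentiation conditions; the cytokines used are not stated in the labels. The Th0 library came from naive T cells stimulated through CD3 and CD28 for 3 days. Naive CD4+ T cells selected straight from the spleen gave the fourth library. The sources used here do not give the mice's age, sex or number, or whether cells were pooled.

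New fatty acids are built in the cytosol from acetyl-CoA. ATP citrate lyase (Acly) makes acetyl-CoA from citrate, acetyl-CoA carboxylase (Acaca, Acacb) turns it into malonyl-CoA, and fatty acid synthase (Fasn) assembles palmitate. Elovl6 lengthens palmitate to stearate, the Scd enzymes place the first double bond into saturated chains, and Fads1 and Fads2 add double bonds to polyunsaturated ones. Srebf1 encodes SREBP1, a transcription factor that is held in the membrane until it is cleaved and that is known to drive this set of genes. T cells take up this programme when they are activated, and in mice the loss of acetyl-CoA carboxylase 1 in T cells is known to hinder Th17 and to favour Treg differentiation.

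Because each group had 1 library, none of these differences could be checked in replicates, and the 95% intervals cover counting error only. Total counts were 12414372 in Th17, 10256627 in Treg, 10272122 in Th0 and 11901949 in naive, so that 1 count was worth 0.0766, 0.0902, 0.114 and 0.0814 CPM in these libraries. CPM is the depth-corrected count, here with library sizes scaled by TMM factors. Folds are ratios of CPM, while log2 ratios are of CPM + 1. The size rule for calling a gene higher or lower asked for at least 2-fold on that log2 scale and for an interval of the count ratio that excluded 1. With library totals as the scale, the median log2 ratio over all tested genes shifted by 0.27 for Th17 over Th0, by 0.31 for Treg over Th0 and by -0.25 for Th0 over naive, and by less than 0.1 in the other 3 comparisons.

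The labels were set against marker genes. The T cell markers summed to 4359 CPM in Th17, 4608 in Treg, 5027 in Th0 and 3799 in naive. Th17 markers summed to 585 CPM in Th17, 324 in Treg, 71.8 in Th0 and 62.9 in naive. Treg markers summed to 2642, 2344, 494 and 542 CPM in the same libraries, a sum no higher in Treg than in Th17. In Th17 over Treg, 3 of 6 Th17 markers were higher and 2 of 6 Treg markers lower, against 1.94% and 1.21% of all tested genes. Those 2 Treg markers were Foxp3 (log2 ratio -2.09) and Nrp1 (-1.39). In Treg over Th0, 5 of 6 Treg markers and 5 of 5 tested Th17 markers were higher, against 20.2% of all. Foxp3 had a log2 ratio of 4.47 in Treg over Th0 and of 2.38 in Th17 over Th0. The naive library also held RNA of other blood cells. Its macrophage and monocyte markers summed to 4796 CPM, against 46.2 CPM in Th17, 62.1 in Treg and 32.3 in Th0. B cell markers summed to 231 CPM in Th17, 107 in Treg, 459.5 in Th0 and 3745 in naive, and neutrophil markers to 7.81, 4.96, 1.37 and 1544 CPM in the same libraries. All 6 adipocyte markers, among them Adipoq and Plin1, had 0 counts in all 4 libraries.

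The 10 genes took up 0.347% of all counts in Th17, 0.353% in Treg, 0.187% in Th0 and 0.0953% in naive. Levels between genes were set per length, as the authors' FPKM, whose lengths differ from the union of annotated exons. Scd2 was the highest of the 10 in the 3 cultured libraries, with 65.3% of their summed FPKM in Th17, 62.7% in Treg and 74.0% in Th0, against 17.4% in naive, where Acly was the highest. Acacb was the lowest in every library. With the union of annotated exons as length, the share of Scd2 was 61.0% in Th17, 59.0% in Treg, 70.1% in Th0 and 14.2% in naive. The highest and the lowest gene of each library stayed the same, but other places in the order changed.

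**Figure D1:**
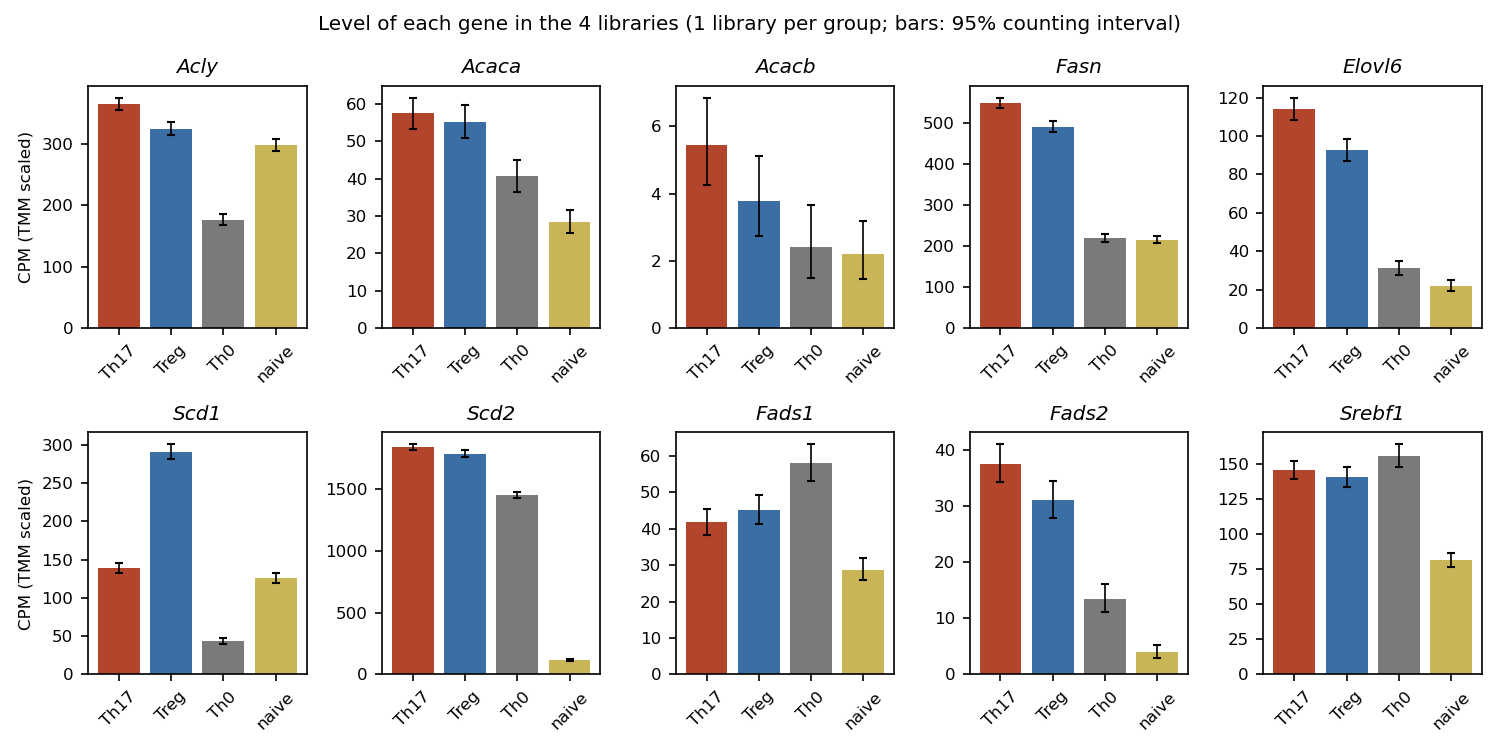
Level of each of the 10 genes in CPM (vertical axis, linear from 0, a scale of its own in each panel) in the Th17, Treg, Th0 and naive libraries; bars are the value of the 1 library and error bars its 95% Poisson interval. Acly and Scd1 were lowest in Th0 and the other genes in naive, where Fasn and Acacb could not be told apart from Th0 by counting error. Scd1 alone was at least 2-fold apart between Th17 and Treg.

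Acly (chromosome 11, 100476353 to 100528000, minus strand, GRCm38) supplies the acetyl-CoA. It had 365 CPM in Th17 (355 to 375) and 324 in Treg (314 to 335), against 176 in Th0 (168 to 185) and 298 in naive (289 to 308). Th0 was thus the low library, and the other 3 lay within 1.22-fold of each other. Acly was 2.07-fold higher in Th17 than in Th0 (interval 1.95 to 2.19) and 1.84-fold higher in Treg than in Th0 (1.73 to 1.96). Under the 4 scalings the Th17 ratio passed the rule 3 times and the Treg ratio 1 time.

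The carboxylases came next in the pathway. Acaca (chromosome 11, 84129672 to 84401651, plus strand), which encodes the cytosolic carboxylase that feeds synthesis, had 57.5 CPM in Th17, 55.3 in Treg, 40.7 in Th0 and 28.4 in naive. It met the rule in none of the 6 comparisons. Its fold was 2.02 for Th17 over naive (1.78 to 2.30), with a log2 ratio of 0.99 that passed 1 when scaled to library totals. Acaca reads may be shared with Gm5182, a locus that matches a transcript of it over 685 bases at 99.9% identity. Acacb (chromosome 5, 114146535 to 114250761, plus strand), which encodes the carboxylase at the mitochondrial membrane that restrains fatty acid oxidation, had 71 counts in Th17, 42 in Treg, 21 in Th0 and 27 in naive. That is 5.44, 3.79, 2.40 and 2.20 CPM, and each neighbour in this order had an interval of the ratio that included 1. Acaca made up 87.2% of the pair's FPKM in Th17, 90.4% in Treg, 91.6% in Th0 and 89.3% in naive, so the cytosolic form led in every library.

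Fasn (chromosome 11, 120805846 to 120824547, minus strand) encodes the synthase itself. It had 550.1 CPM in Th17 (537 to 563) and 491 in Treg (479 to 505), against 219 in Th0 (209.6 to 229) and 216 in naive (208 to 224). The libraries fell into a high and a low pair, and Th0 and naive could not be told apart by counting error (1.02-fold, 0.958 to 1.08). Fasn was 2.51-fold higher in Th17 than in Th0 (2.38 to 2.64), 2.24-fold higher in Treg than in Th0 (2.13 to 2.36), and 2.55-fold and 2.28-fold higher in Th17 and in Treg than in naive. All 4 of these calls were met under the 4 scalings.

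Elovl6 (chromosome 3, 129532355 to 129638495, plus strand) had 114 CPM in Th17, 92.6 in Treg, 31.1 in Th0 and 22.1 in naive. Each of its 3 steps down in this order exceeded counting error. The elongase was 3.67-fold higher in Th17 than in Th0 (3.23 to 4.20) and 2.98-fold higher in Treg than in Th0 (2.61 to 3.42), while Th0 over naive was 1.41-fold (1.19 to 1.67), short of a call. Among the 10 genes it had the highest ratio in Th17 over Th0, at a log2 ratio of 1.84, above that of 93.4% of all tested genes.

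The stearoyl-CoA desaturases Scd1 and Scd2 lie next to each other on chromosome 19, at 44394451 to 44407709 on the minus strand and at 44293676 to 44306864 on the plus strand. Their patterns were the furthest apart of any members compared. Scd2 had 1843 CPM in Th17 (1820 to 1866), 1789 in Treg (1764 to 1814) and 1454 in Th0 (1429 to 1480), against 116 in naive (110.5 to 123). All 3 cultured libraries were high and the naive one was low. Scd2 was 15.8-fold higher in Th17 (14.999 to 16.7), 15.4-fold higher in Treg (14.6 to 16.2) and 12.5-fold higher in Th0 (11.8 to 13.2) than in naive. Its log2 ratio lay above that of 99.4% of tested genes in Th17 over naive, 99.6% in Treg over naive and 99.4% in Th0 over naive. Between the cultures it differed little, at 1.27-fold for Th17 over Th0 and 1.23-fold for Treg over Th0.

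Scd1 had 139 CPM in Th17 (133 to 146), 291 in Treg (281 to 301), 43.6 in Th0 (39.4 to 48.2) and 126 in naive (119.8 to 132). Treg was the high library and Th0 the low one, with Th17 and naive between them and 1.10-fold apart (1.03 to 1.18). Scd1 was 2.89-fold lower in Th0 than in naive (2.58 to 3.24). It was 3.19-fold higher in Th17 than in Th0 (2.85 to 3.57), 6.67-fold higher in Treg than in Th0 (6.00 to 7.44) and 2.31-fold higher in Treg than in naive (2.17 to 2.46). Scd1 was also 2.09-fold lower in Th17 than in Treg (1.97 to 2.22), with a log2 ratio between -1.10 and -1.06 over the 4 scalings. Of all tested genes, 0.997% had a lower ratio in that comparison.

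Within the pair the balance differed between the libraries. Scd2 made up 92.2% of the summed FPKM of Scd1 and Scd2 in Th17, 84.5% in Treg and 96.7% in Th0, against 45.05% in naive. The same shares of the read counts were 93.0% (92.7 to 93.3), 86.0% (85.6 to 86.5), 97.1% (96.8 to 97.4) and 48.0% (46.2 to 49.8), with exact binomial intervals. All 4 intervals, which cover counting error only, were apart from each other. Naive also stood apart in macrophage and monocyte markers (4796 CPM, against 46.2 in Th17, 62.1 in Treg and 32.3 in Th0). Its B cell markers summed to 3745 CPM, against 231, 107 and 459.5 in the same cultures. How much Scd1 or Scd2 RNA in naive came from such cells was not tested. The search for near-identical copies returned no transcript of another gene for Scd1 or Scd2. It kept only alignments scoring close to the best one, a gene's own transcript, so weaker or partial matches could be missed. Scd3 and Scd4, the other mouse members of the family, had at most 1.08 CPM in any library.

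**Figure D2:**
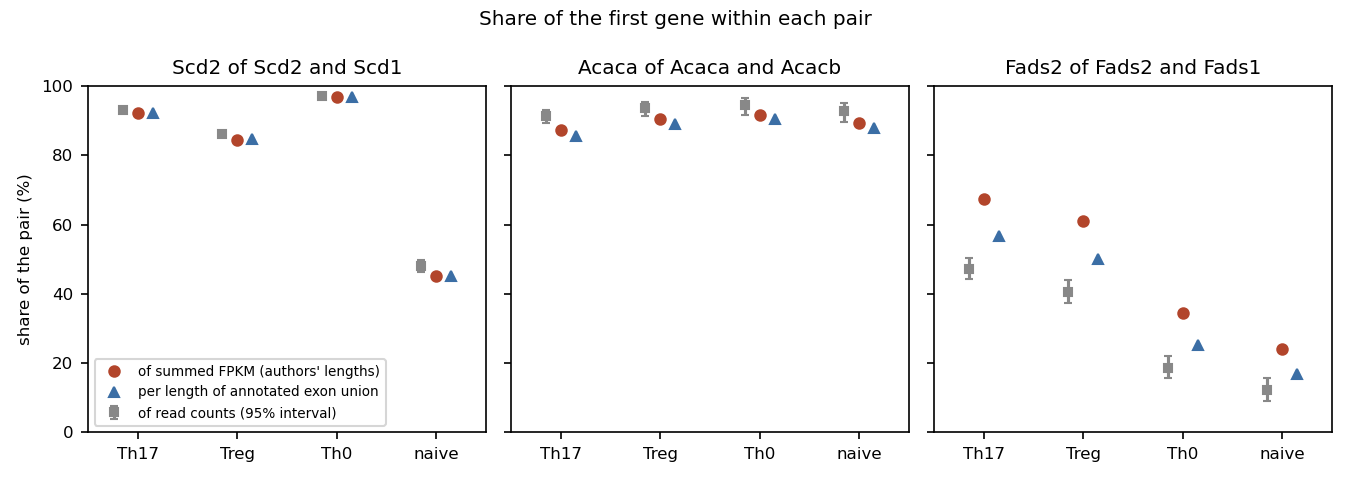
Share of Scd2, Acaca and Fads2 in its pair (vertical axis, %) in the Th17, Treg, Th0 and naive libraries; squares are shares of read counts with exact 95% binomial intervals, circles shares of the authors' FPKM and triangles shares per length of the union of annotated exons. Scd2 fell below 50% of the counts only in naive, and Acaca stayed above 85% by all 3 measures.

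Fads2 and Fads1, the front-end desaturases of polyunsaturated fatty acids, also lie together on chromosome 19, at 10064164 to 10101503 on the minus strand and at 10182888 to 10196870 on the plus strand. Fads2, which acts before Fads1 in the pathway, had 37.5 CPM in Th17 (34.3 to 41.0), 31.0 in Treg (27.8 to 34.5), 13.4 in Th0 (11.1 to 16.0) and 3.99 in naive (2.95 to 5.27). No interval of a culture reached that of naive, and those of Th17 and Treg touched. Fads2 was 9.41-fold higher in Th17 (7.01 to 12.9), 7.78-fold higher in Treg (5.75 to 10.7) and 3.35-fold higher in Th0 (2.38 to 4.78) than in naive, where it rested on 49 counts. It was 2.81-fold higher in Th17 than in Th0 (2.29 to 3.47) and 2.32-fold higher in Treg than in Th0 (1.88 to 2.89).

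Fads1 had 41.8 CPM in Th17, 45.3 in Treg, 58.0 in Th0 and 28.8 in naive. With TMM, Th0 was the high library and naive the low one, and Th17 and Treg could not be told apart by counting error. Treg over Th0 had a log2 ratio of -0.35 with TMM, -0.42 with DESeq2 size factors and -0.33 with upper quartile factors. It was -0.015 with library totals and -0.014 by FPKM, which uses the same totals, so that the place of Th0 above Treg rests on the scaling. Fads1 met the rule in none of the 6 comparisons. For Th0 over naive its fold was 2.01 (1.75 to 2.31) with a log2 ratio of 0.99, and for Th17 over Th0 its log2 ratio was -0.46. Of the reads of the pair, Fads2 took 47.3% in Th17 (44.2 to 50.4), 40.7% in Treg (37.3 to 44.1), 18.7% in Th0 (15.7 to 22.0) and 12.2% in naive (9.13 to 15.8).

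The level of Fads2 against Fads1 depended on the length used. By the authors' FPKM, Fads2 was 2.06-fold above Fads1 in Th17 and 1.57-fold in Treg, and it was 0.528 and 0.317 of Fads1 in Th0 and naive. The FPKM values imply a length of 1508 bases for Fads2, whereas the union of its annotated exons is 3295 bases, and the table starts the gene at 10064164 where GENCODE vM21 starts it at 10062765. With union lengths the same ratios were 1.31 in Th17, 1.001 in Treg, 0.336 in Th0 and 0.202 in naive. The order of the 4 libraries was the same on both scales.

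Srebf1 (chromosome 11, 60199089 to 60222581, minus strand) had 146 CPM in Th17 (139 to 153), 141 in Treg (134 to 148) and 156 in Th0 (148 to 165), against 81.6 in naive (76.6 to 86.8). The cultures lay within 1.11-fold of each other and naive was low. Srebf1 was 1.79-fold higher in Th17, 1.72-fold higher in Treg and 1.91-fold higher in Th0 than in naive, without a call in any of the 6 comparisons. Th17 over Th0 had a log2 ratio of -0.10 and Treg over Th0 one of -0.15, but with library totals they were 0.20 and 0.19. The table gives 1 value per gene, so the SREBP1a and SREBP1c transcripts could not be told apart. Rai1, on the opposite strand, shares 109 exonic bases with Srebf1 in the annotation, and strandedness is not given in the sources used here. Cleavage of the protein is not measured by RNA.

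The promoters of Fasn and of the SREBP1c transcript of Srebf1 are shown. The enzyme differed between the cultures by more than 2-fold while the RNA of its regulator did not. That trait does not single them out, since Elovl6 and Fads2 also differed by more than 2-fold and had windows, not shown. Other windows of Srebf1 are not shown either. The 2 printed windows are the only ones of the 9 with the spaced repeat marked below. They are from RefSeq on GRCm38.p6, 5′ to 3′ on the minus strand, with 250 bases before and 50 after the start. Capitals mark CCAAT on either strand, CATGTG on either strand and, on either strand, a spaced repeat of 2 copies of TNACC with 5 bases of any kind between them.
Fasn promoter, chr11:120824498-120824797: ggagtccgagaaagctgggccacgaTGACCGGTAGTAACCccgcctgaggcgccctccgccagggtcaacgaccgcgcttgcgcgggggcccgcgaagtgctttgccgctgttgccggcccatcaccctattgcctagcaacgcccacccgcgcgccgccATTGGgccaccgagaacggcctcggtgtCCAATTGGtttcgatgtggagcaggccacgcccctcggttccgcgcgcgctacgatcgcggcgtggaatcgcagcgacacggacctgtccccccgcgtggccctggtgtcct
Srebf1 promoter, chr11:60210422-60210721: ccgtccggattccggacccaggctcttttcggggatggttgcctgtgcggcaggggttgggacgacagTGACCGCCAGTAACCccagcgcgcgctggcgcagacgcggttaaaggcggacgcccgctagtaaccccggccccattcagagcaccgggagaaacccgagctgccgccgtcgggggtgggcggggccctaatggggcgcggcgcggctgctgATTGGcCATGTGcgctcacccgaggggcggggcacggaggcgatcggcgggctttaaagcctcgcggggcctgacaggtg

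Of the 10 genes, 7 had a promoter in the table used, with 9 windows of 300 bases in all. The spaced repeat, which is how receptors of the LXR family are known to bind, was in 2 of these windows, those printed, and in 0.718% of all 32851 windows. Its letters were chosen with the Srebf1 promoter known, so the match there is no finding. The Fasn match has the same letters as that of Srebf1 outside the spacer. Whether the repeat is more common in these windows than in all windows was not tested. CCAAT was in 5 of the 9 windows and in 37.4% of all, GGGCGG in 4 and in 35.7%, CATGTG in 2 and in 14.2%. TCACNCCA, the core of the sterol regulatory element, was in 0 of the 9 windows and in 4.36% of all, and CACGTG was in 0 and in 7.15%. Only matches to these letters within the windows were sought, so sites with other letters or further away would be missed. Scd1, Scd2 and Fads1 had no window. In the Fasn window, 2 matches to CCAAT overlap each other.

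In Th17 over Th0, 5 of the 10 genes were called higher (Acly, Fasn, Elovl6, Scd1 and Fads2), 0 lower and 5 neither. Among all 13324 tested genes 20.4% were higher and 12.2% lower. The median log2 ratio of the 10 genes was 0.98, against 0.10 over all tested genes. Of all calls in this comparison, 62.6% were higher with TMM, 79.3% with library totals and 76.2% by FPKM, and with library totals 6 of the 10 genes were called higher. In Treg over Th0, 4 of the 10 were higher (Fasn, Elovl6, Scd1 and Fads2) and 0 lower, where 20.2% of 13138 tested genes were higher and 11.9% lower. The median was 0.69, against 0.08 over all tested genes. Here 62.9% of all calls were higher with TMM, 81.8% with library totals and 78.4% by FPKM, and with library totals 5 of the 10 genes were called higher. Both comparisons rest on the same Th0 library. Of the macrophage and monocyte markers, 4 of 6 tested were higher in Th17 than in Th0 and 5 of 10 were higher in Treg than in Th0, while B cell markers were lower for 4 of 10 and for 10 of 10. Dendritic cell markers were higher for 3 of 4 tested in each comparison, and neutrophil markers for 3 of 3 in Th17 over Th0 and for 1 of 1 in Treg over Th0. Of the 8 markers of dividing cells, 4 were lower and 0 higher in each comparison, and they summed to 2276 CPM in Th17 and 2574 in Treg, against 4880.4 in Th0. Their part in these counts was not tested.

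In Th17 over Treg, Scd1 was called lower and the other 9 genes were not called, where 1.94% of 13346 tested genes were higher and 1.21% lower. The median log2 ratio was 0.11, against 0.01 over all tested genes. Apart from Scd1, the log2 ratios ran between -0.11 for Fads1 and 0.43 for Acacb, whose interval of the fold was 0.967 to 2.16. Fasn, Acly, Elovl6, Fads2 and Scd2 were 1.12-fold, 1.12-fold, 1.23-fold, 1.21-fold and 1.03-fold higher in Th17, with intervals above 1 but folds below 2. Of the markers of other cells, 2 of 10 for macrophages and monocytes (C1qa, log2 ratio -1.19, and Lyz2, -1.08) and 1 of 4 tested for dendritic cells (Itgax, -1.43) were lower in Th17, as Scd1 was. B cell markers were higher in Th17 for 8 of 10. Their part in these ratios was not tested.

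**Figure D3:**
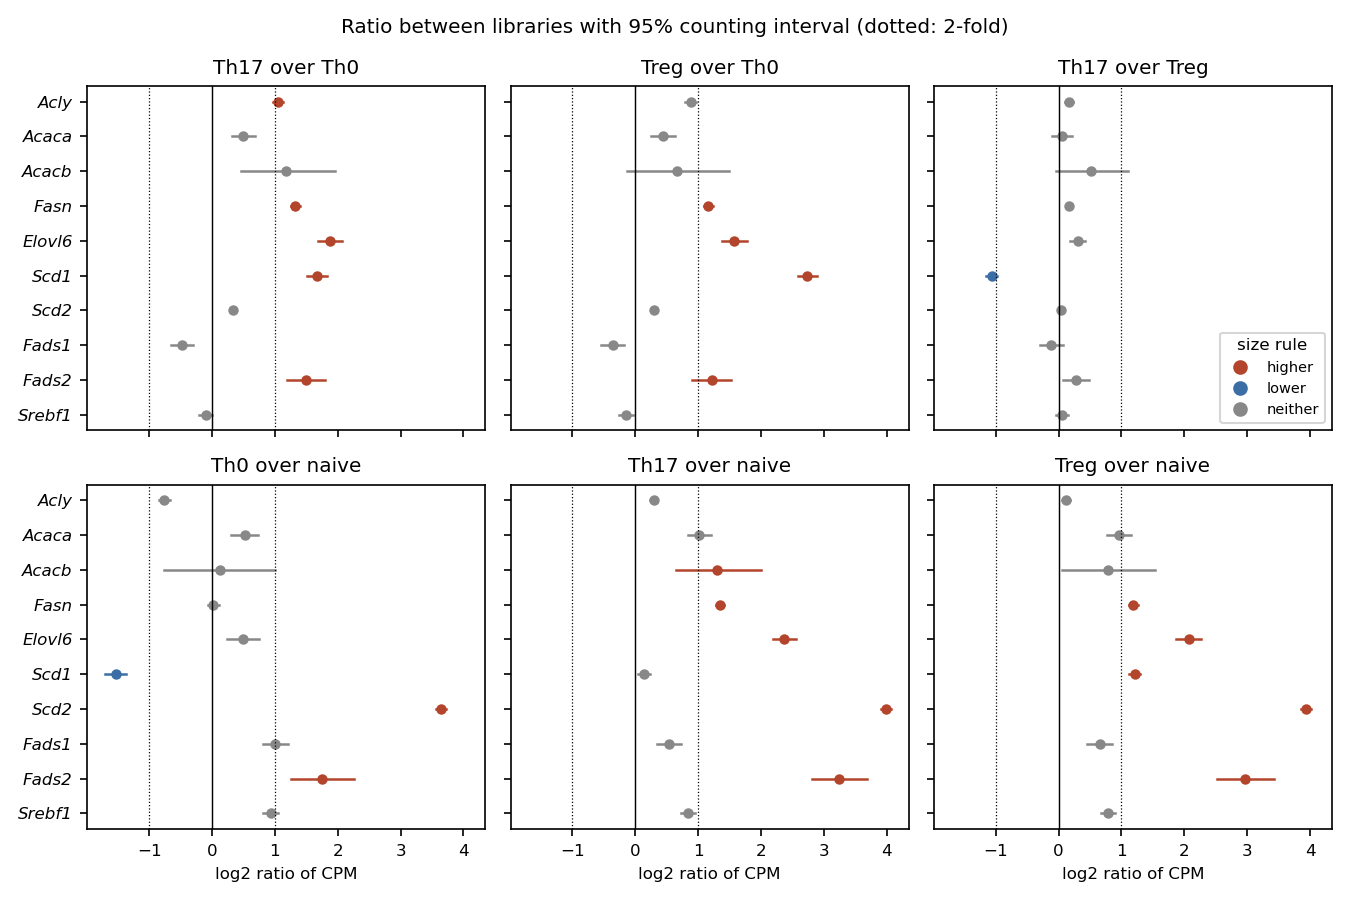
Log2 ratio of CPM (horizontal axis, without the added 1 CPM) of each of the 10 genes in the 6 comparisons, with 95% counting intervals; red points were called higher, blue lower and grey neither, and dotted lines mark 2-fold. Elovl6, Fasn, Scd1 and Fads2 lie right of the dotted line in Th17 over Th0 and in Treg over Th0, and Scd2 lies far right in the comparisons with naive.

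Against naive, 2 of the 10 genes were higher in Th0 (Scd2 and Fads2) and 1 lower (Scd1), where 18.5% of 13995 tested genes were higher and 27.2% lower. With TMM 40.5% of all calls were higher in that comparison and with library totals 29.6%, where Acly was called lower as well (log2 ratio -1.03). In Th17 over naive, 5 were higher and 0 lower, where 15.6% of 14523 tested genes were higher and 17.4% lower. Those 5 were Fasn, Scd2, Elovl6, Fads2 and Acacb, the last called under 2 of 4 scalings. In Treg over naive, 5 were higher (Fasn, Scd1, Scd2, Elovl6 and Fads2) and 0 lower, where 14.9% of 14350 tested genes were higher and 16.8% lower. The medians over naive were 1.001 for Th17, 1.06 for Treg and 0.49 for Th0, against -0.00069, -0.02 and -0.13 over all tested genes.

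Markers of other blood cells moved with these 3 comparisons. In Th17, Treg and Th0 alike, 10 of 10 B cell, 10 of 10 macrophage and monocyte and 8 of 8 neutrophil markers were lower than in naive. Markers of dividing cells went the other way and were higher than in naive for 8 of 8 in each culture, with median log2 ratios of 2.34 in Th17, 2.54 in Treg and 3.42 in Th0. They summed to 449.6 CPM in naive, the lowest of the 4 libraries. The part of either in these ratios was not tested. A larger share of a cell type and more RNA per cell cannot be told apart in bulk libraries. The comparisons between the 3 cultures do not use the naive library, and with TMM factors computed without it they gave the same number of called members.

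Patterns over the 4 libraries were compared as the root mean square difference of log2(CPM + 1) centred on its mean over the 4 libraries. Among members with at least 10 CPM in 1 library, Fads1 and Srebf1 were the closest pair, at 0.14. Elovl6 lay 0.38 from Fasn and 0.38 from Fads2, and Acaca 0.24 from Srebf1. Scd1 and Scd2 lay 1.89 apart. Of 9874 genes searched, those closest to Fasn were Trim45 (0.02), Glb1 (0.04) and H2afy (0.05), and those closest to Elovl6 were Creb3l2 (0.06), Sesn2 (0.07) and Bcl2 (0.08). Among the closest to Scd2 were Lag3 (0.10) and Ccnb1 (0.16), and closest to Fads2 were Fam114a1 (0.05), Smtn (0.08) and Lamc1 (0.11). Scd1 had no gene as near, with Sall2 at 0.19, Galm at 0.20 and Slfn9 at 0.21. Likeness over 4 libraries is a description only.

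The supply of citrate and NADPH was read from 11 genes, of which 10 were tested. In Th17 over Th0, 2 were higher and 1 lower, near the 20.4% and 12.2% of all tested genes, and in Treg over Th0, 4 were higher and 0 lower, against 20.2% and 11.9% of all. Pgd, an enzyme of the pentose phosphate pathway that makes NADPH, had 88.8 CPM in Th17 and 85.1 in Treg, against 41.1 in Th0 and 140 in naive. Me2, a mitochondrial malic enzyme, had 113 CPM in Th17, 107 in Treg, 51.3 in Th0 and 109 in naive. Slc25a1, the carrier that exports citrate from mitochondria, followed another order, with 91.3, 88.8 and 81.2 CPM in Th17, Treg and Th0, against 29.4 in naive. Me1, the cytosolic malic enzyme that is a main NADPH source in liver and fat, had at most 0.571 CPM.

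Among 21 other enzymes of elongation, desaturation and mitochondrial fatty acid synthesis, 15 were tested in both comparisons with Th0. In Th17 over Th0, 3 were higher and 1 lower (median 0.37), and in Treg over Th0, 2 were higher and 1 lower (median -0.04). The shares called higher were no larger than the 20.4% and 20.2% of all tested genes in these comparisons. Mcat and Mecr, of mitochondrial fatty acid synthesis, were 2.99-fold and 2.61-fold higher in Th17 than in Th0 and 2.63-fold and 2.30-fold higher in Treg than in Th0. Elovl5, which elongates polyunsaturated fatty acids, had 122 CPM in Th17 and 142 in Treg, against 286 in Th0 and 216 in naive. It was called lower in Th17 (2.34-fold) and in Treg (2.02-fold) than in Th0. Hsd17b12, the ketoreductase of the elongation cycle, was 2.26-fold higher in Th17 than in Treg (2.001 to 2.55), at 74.9 against 33.2 CPM.

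Regulators of SREBP were counted next. In Th17 over Th0, 2 of 15 tested were higher and 3 lower (median -0.27), and in Treg over Th0, 2 of 15 were higher and 3 lower (median -0.32). Over all tested genes 20.4% were higher and 12.2% lower in Th17 over Th0 and 20.2% and 11.9% in Treg over Th0, so the counts are no result about the list. Insig1, which retains SREBP in the endoplasmic reticulum and is itself a target of it, had 165 CPM in Th17 and 152 in Treg, against 402 in Th0 and 55.1 in naive. Scap, which escorts SREBP to the Golgi, had 90.9 CPM in Th17 and 109 in Treg, against 43.2 in Th0 and 123 in naive. Usf1, a factor known to bind the Fasn promoter, had 28.7 CPM in Th17 and 34.1 in Treg, against 92.6 in Th0 and 72.4 in naive. Nr1h3, which encodes LXR alpha, had 1.38 CPM in Th17, 2.98 in Treg and 0.800 in Th0, against 48.3 in naive, while Nr1h2, which encodes LXR beta, lay between 93.1 and 100.4 CPM in all 4.

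SREBP2 is the factor of cholesterol synthesis, and 8 of its targets were tested. Against naive, 8 of 8 were higher in Th17 (median 2.25), 8 of 8 in Treg (2.26) and 7 of 8 in Th0 (2.58), where 15.6%, 14.9% and 18.5% of all tested genes were higher. In Th17 over Th0 and in Treg over Th0, 0 of 8 were called in either direction, with medians of 0.03 and -0.19, where 20.4% and 20.2% of all tested genes were higher and 12.2% and 11.9% lower. The difference between this list and the 10 genes was not tested.

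**Figure D4:**
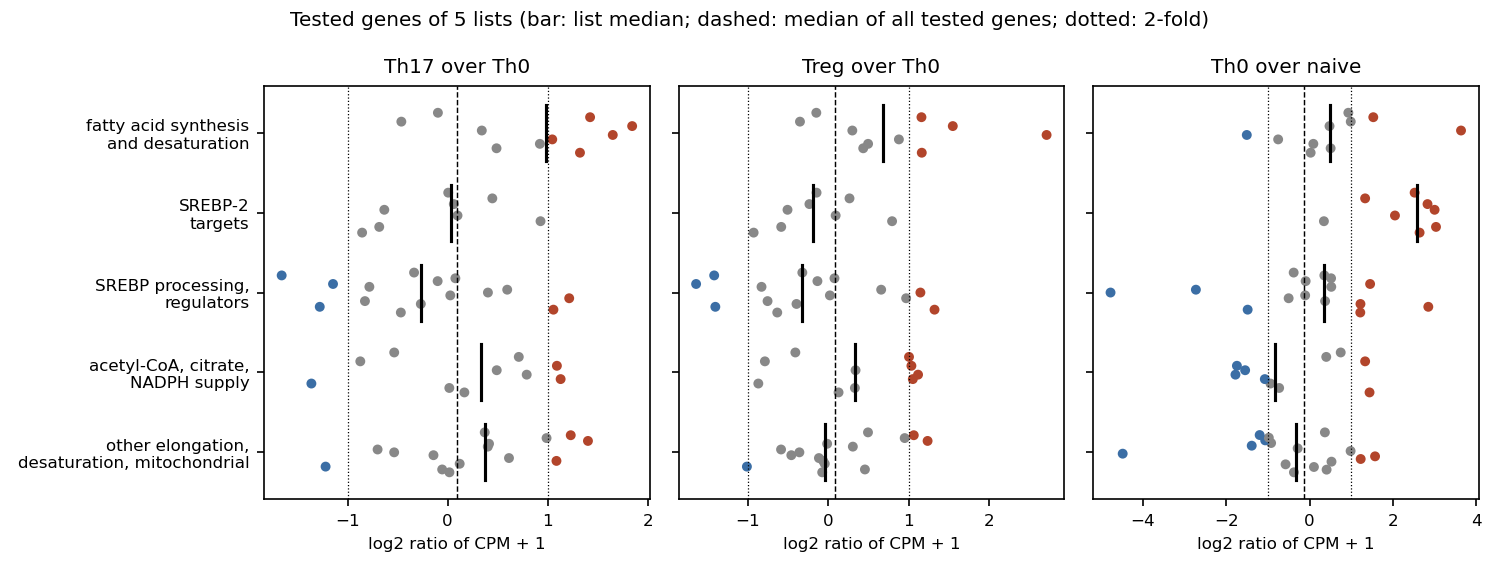
Log2 ratio of CPM + 1 (horizontal axis) of the tested genes of 5 lists in Th17 over Th0, Treg over Th0 and Th0 over naive; each point is a gene, red called higher, blue lower and grey neither, the black bar is the list median and the dashed line the median of all tested genes. The SREBP2 targets lie around 0 in the first 2 panels and mostly right of the 2-fold line in Th0 over naive, where the 10 fatty acid genes had a median of 0.49.

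AMPK is the kinase that inhibits acetyl-CoA carboxylase. Of 7 tested genes of its subunits and upstream kinases, 1 was higher and 0 lower in Th17 over Th0 and likewise in Treg over Th0, where 20.4% and 20.2% of all tested genes were higher. That gene was Camkk2, which encodes an upstream kinase, at 50.3 CPM in Th17 and 37.9 in Treg, against 16.0 in Th0 and 36.2 in naive. Of 12 genes of fatty acid uptake, storage and release, 9 were tested in Th17 over Th0, and 4 were higher and 0 lower. In Treg over Th0, 6 of 11 were higher and 0 lower. The shares of all tested genes were 20.4% higher and 12.2% lower in Th17 over Th0, and 20.2% and 11.9% in Treg over Th0. Dgat1, which makes triglyceride, had 265 CPM in Th17, 153 in Treg, 81.1 in Th0 and 35.7 in naive. Of the 7 LXR targets, 2 were higher and 2 lower in Th17 over Th0, and 3 were higher and 2 lower in Treg over Th0, to be read against the same shares.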

How the data were processed

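Total RNA, isolated with TRIzol per the labels' protocols, was sequenced on an Illumina HiSeq. Bowtie2 and RSEM, and as builds mm10 and GRCm38.p6, appear in the submitters' processing notes with no version or role. The annotation used for counting and the strandedness were not given in the sources used here. The authors deposited whole-number counts per gene, with no normalization, and FPKM values. The deposited FPKM equalled the count over a length and the library total, with 1 length per gene in 8988 of 8988 genes with at least 50 counts in every library (tolerance 0.1%). That length was a median of 1.27 times the union of exons annotated in GENCODE vM21, over 8969 genes.

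Genes with at least 10 counts in 1 of the 2 libraries were tested for size in 6 comparisons over the whole table, with TMM factors from edgeR 4.0.16 in R 4.3.3 and exact conditional intervals (Clopper-Pearson) from scipy 1.17.1. No p-value was computed, since each group had 1 library. For the same reason the intervals cover counting error only. Reads carry no molecular identifiers, so counts are of reads and not of molecules, and the intervals treat each read as separate. The calling rule was also run on simulated counts with planted changes and Poisson error only. Without spread between libraries, that run could not test how far the calls would hold in replicates. Near-identical copies were sought with minimap2 2.31-r1302. The 10 genes and all gene lists were chosen with earlier results of these data known. Named beside the members were, from each list, genes among the 3 with the largest absolute log2 ratio in a comparison, the 3 genes nearest in pattern to a member, and a few chosen after their values were seen (Me1, Nr1h2, Scd3 and Scd4). Hsd17b8 was listed and not analysed here, and a few genes that the naming rule selects are not reported here. Alternatives were size factors of DESeq2 1.42.0, upper quartile factors, library totals, pseudocounts of 0.1 and 5 CPM, no count filter, the FPKM values and thinning to the smallest library total.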

Additional observations from a re-analysis of the deposited data

Results flagged for a closer look

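Scd1 went in opposite directions in 2 comparisons with the same naive library. Its log2 ratio was 1.201 for Treg over naive and -1.51 for Th0 over naive. Each group had 1 library, so the difference between these effects was not tested, and both ratios share the naive library, whose macrophage and monocyte markers summed to 4796 CPM. The ratio of Treg to Th0, which leaves the naive library out, was 6.67-fold (6.00 to 7.44).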

How the results depend on the processing

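Each of 60 log2 ratios was recomputed under 8 alternatives, and in the 3 comparisons between cultures also with TMM factors from which the naive library was left out, a choice made after seeing the data. Of 510 recomputed ratios, 492 kept their call, 7 called ratios lost it, 11 passed the 2-fold rule newly and none of the called ones changed sign, and 51 of the 60 ratios kept their call under all alternatives run. The changes concerned Acly, Acaca, Acacb, Fads1 and, with a pseudocount of 5 CPM, Fads2 in Treg over Th0 (log2 ratio 0.97). The number of members called moved by more than 1.5 times in 1 case: with library totals 2 were lower in Th0 than in naive, against 1 with TMM. The uncalled log2 ratio of Fasn for Th0 over naive was 0.02 with TMM and -0.25 with library totals. With union exon lengths, chosen after seeing the data, the share of Fads2 in its pair with Fads1 fell to 56.7% in Th17, 50.02% in Treg, 25.2% in Th0 and 16.8% in naive, against 67.3%, 61.1%, 34.5% and 24.1% by FPKM. Depth limits Acacb most, with 21 to 71 counts a library. No paired analysis was possible because each group had 1 library and the labels give no replicate numbers.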
